A study of Mus musculus with 4 samples.

Results

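The 10 genes described here encode amino acid transporters of the plasma membrane that carry cystine, glutamine, neutral and cationic amino acids: *Slc3a2*, *Slc7a5*, *Slc7a7*, *Slc7a11*, *Slc7a1*, *Slc7a2*, *Slc1a4*, *Slc1a5*, *Slc38a1* and *Slc38a2*. They were chosen by gene symbol, for what their proteins transport, and all 10 were found among the 24346 genes of the tables. RNA-seq had been performed on *in vitro* MDSCs, immature myeloid cells with immunosuppressive activity grown from BM cells of young adult female C57BL/6J mice, to compare their expression with and without G-CSF. All cultures received 40 ng/ml GM-CSF for 4 days. There were 2 libraries without G-CSF (Control) and 2 libraries with 5 ng/ml G-CSF (G-CSF), and each library holds unsorted cells of a culture. The study calls the replicates biological, while the labels only number them, and neither says whether they came from separate animals; the p-values measure the spread between these libraries.

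Amino acids cross the plasma membrane through families of solute carriers that differ in substrate and in the gradient they use. The SLC7 light chains xCT (*Slc7a11*), LAT1 (*Slc7a5*) and y+LAT1 (*Slc7a7*) are exchangers that reach the membrane bound to the heavy chain SLC3A2, whereas CAT1 (*Slc7a1*) and CAT2 (*Slc7a2*) work alone and carry arginine, lysine and ornithine. ASCT1 (*Slc1a4*) and ASCT2 (*Slc1a5*) exchange small neutral amino acids, and SNAT1 (*Slc38a1*) and SNAT2 (*Slc38a2*) import neutral amino acids, glutamine among them, together with sodium. In MDSCs these routes are known for their place in T cell suppression, through the uptake of cystine through xCT and the uptake of arginine, the substrate of arginase and of inducible nitric oxide synthase.

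G-CSF was followed by higher mRNA levels of *Slc7a5*, *Slc7a1*, *Slc1a5* and *Slc38a1* and by a lower level of *Slc7a11*. The rises were between 1.17-fold and 1.37-fold, and *Slc7a11* stood at 0.774 times its Control level. The other 5 transporters, *Slc3a2*, *Slc7a2*, *Slc7a7*, *Slc1a4* and *Slc38a2*, did not pass the test. A gene passed at an adjusted p under 0.05 with limma on log2(FPKM + 0.1), where FPKM is the number of fragments scaled to transcript length and mapped reads, and folds on this scale understate the change of low genes. Of the 11701 genes tested, 23.9% passed, 12.6% being higher and 11.3% lower with G-CSF, against 4 higher and 1 lower among the 10 transporters. None of the 10 passed with a fold change over 2, the threshold used in the study, which 1.36% of all genes did, 0.504% being higher and 0.855% lower. An unadjusted p under 0.05 was seen for 5 of the 10 and for 4568 of the 11701 genes tested. The median log2 fold change of the 10 was 0.05, beside 0.01 over all genes tested. The libraries of the groups did not overlap for 7 of the 10, 5 of them higher and 2 lower with G-CSF. The same was true of 66.5% of all genes, 34.2% higher and 32.4% lower.

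**Figure D1:**
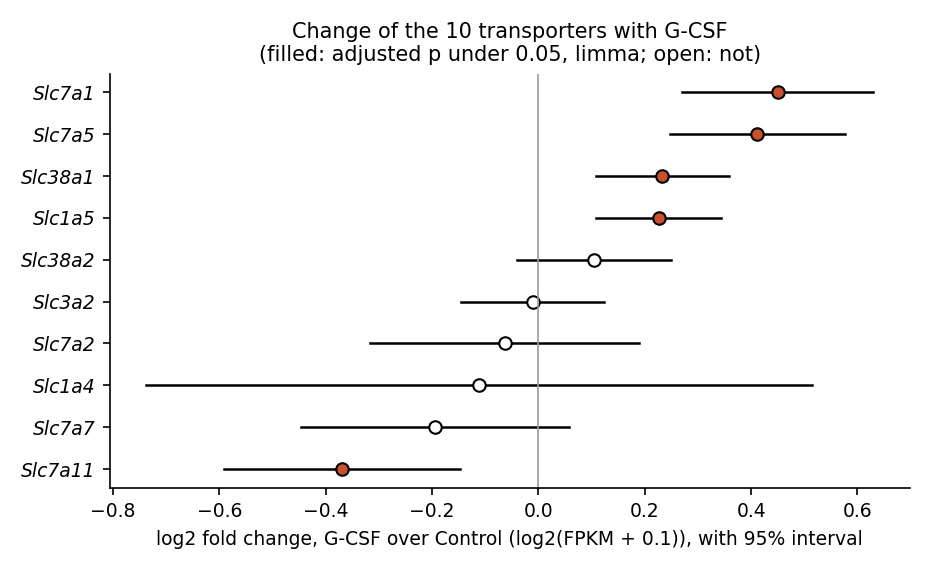
Log2 fold change of each transporter, G-CSF over Control on log2(FPKM + 0.1), with its 95% interval from limma as a line and filled points for an adjusted p under 0.05. *Slc7a1* at 0.45, *Slc7a5* at 0.41, *Slc38a1* at 0.23 and *Slc1a5* at 0.23 lie above 0, *Slc7a11* at -0.37 lies below it, and the intervals of the 5 open points include 0.

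The size of the library behind these values was estimated from the steps of the lowest FPKM values at 13.4 M and 14.15 M reads for the Control libraries and 12.45 M and 15.7 M for the G-CSF libraries. Of the low values, 65.3% to 70.7% lay within 0.05 reads of a whole number. At these depths *Slc1a4* rests on 65 to 86 estimated reads per library and *Slc7a7* on 235 to 288, whereas the other 8 transporters have between 1472 and 5218. Pearson's r of log2 values across genes was 0.996 between replicates of each group and 0.986 to 0.989 between the groups. GEO's extraction text names liver as the source of RNA, while the sample labels and the study's methods name the cultured cells. Of 6 hepatocyte genes examined, *Alb*, *Fgb*, *Ahsg* and *Tat* were listed at 0 in all 4 libraries. *Hpx* reached at most 0.151 FPKM, and *Cyp2e1* was 1.07 and 0.784 FPKM in Control and 0.578 and 0.461 FPKM with G-CSF.

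Myeloid markers also moved with G-CSF, beside 12.6% of all genes tested that were higher and 11.3% that were lower. Of 12 neutrophil lineage markers, 8 were lower with G-CSF, *S100a8* and *S100a9* among them, and 3 were higher, the granule protease genes *Elane* and *Prtn3* and the myeloperoxidase gene *Mpo*. The summed level of these 12 was 77659 and 67162 FPKM in Control against 53141 and 53101 with G-CSF. Most of this sum was *S100a8* and *S100a9*, at 35613 and 31959 FPKM in Control replicate 1, so it says little about the other markers. Of 9 dendritic cell markers, 6 were lower with G-CSF, and the sum of the 9 went from 3872 and 3245 FPKM to 2179 and 1735. *Cd74* alone went from 2016 and 1740 FPKM to 1153 and 940. The 6 were *Cd74*, *H2-Ab1*, *H2-Aa*, *H2-Eb1*, *Itgax* and *Cd209a*. *Ccl22*, *Flt3* and *Zbtb46* did not pass (adjusted p = 0.0703, 0.275 and 0.261 with limma). Of 9 monocyte and macrophage markers tested, 1 was higher and 5 were lower, with sums of 1950 and 2023 FPKM in Control, against 1745 and 1829 with G-CSF. Of 7 eosinophil, mast cell and basophil markers tested, 6 were lower, with sums of 350.4 and 426.9 FPKM against 263.0 and 222.3. Lymphoid markers summed to 9.96 to 14.1 FPKM in Control and 12.2 to 17.5 with G-CSF, with *Ncr1* at 0 in all libraries. Most of this sum was *Nkg7*, at 10.4 and 6.99 FPKM in Control and 15.1 and 10.3 FPKM with G-CSF, which did not pass. Of 3 lymphoid markers tested, 0 were higher and 1 was lower, *Cd79a* (log2 fold change -0.98). Erythroid markers summed to at most 0.4 FPKM in any library. In bulk samples, fewer cells of a type and less RNA per cell cannot be told apart. By flow cytometry of such cultures, the study reported a lower proportion of polymorphonuclear MDSCs and a higher proportion of monocytic MDSCs with G-CSF. It reported no effect on the percentages of all MDSCs, dendritic cells or macrophages. Whether the sequenced cultures were among those measured is not stated. The part of these shifts in cell markers in the transporter results was not tested.

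The 10 transporters spanned a wide range of levels. In Control, *Slc3a2* was the highest at 101.1 ± 3.14 FPKM (mean ± SD, n = 2), above 92.4% of the genes tested by mean level over all libraries. It was followed by *Slc38a2* at 67.0 ± 3.27 FPKM. *Slc7a5* at 54.1 ± 4.91 and *Slc1a5* at 53.3 ± 1.05 FPKM came next and could not be ordered, since their libraries overlapped. The same held for *Slc38a1* at 30.7 ± 0.59 and *Slc7a11* at 29.2 ± 2.11 FPKM. *Slc7a2* at 17.7 ± 1.06, *Slc7a1* at 15.6 ± 0.963, *Slc7a7* at 9.77 ± 0.881 and *Slc1a4* at 1.57 ± 0.132 FPKM followed, each separate from its neighbors. With G-CSF, *Slc38a2* at 72.0 ± 3.8 and *Slc7a5* at 71.9 ± 0.129 FPKM overlapped, with *Slc1a5* now below them at 62.4 ± 1.82 FPKM. *Slc7a11* at 22.6 ± 2.51 and *Slc7a1* at 21.4 ± 1.23 FPKM overlapped as well. *Slc7a1* and *Slc7a2* changed places, and *Slc3a2* stayed the highest and *Slc1a4* the lowest. The summed level of the 10 was 381.3 and 378.6 FPKM in Control and 409.4 and 418.0 FPKM with G-CSF.

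**Figure D2:**
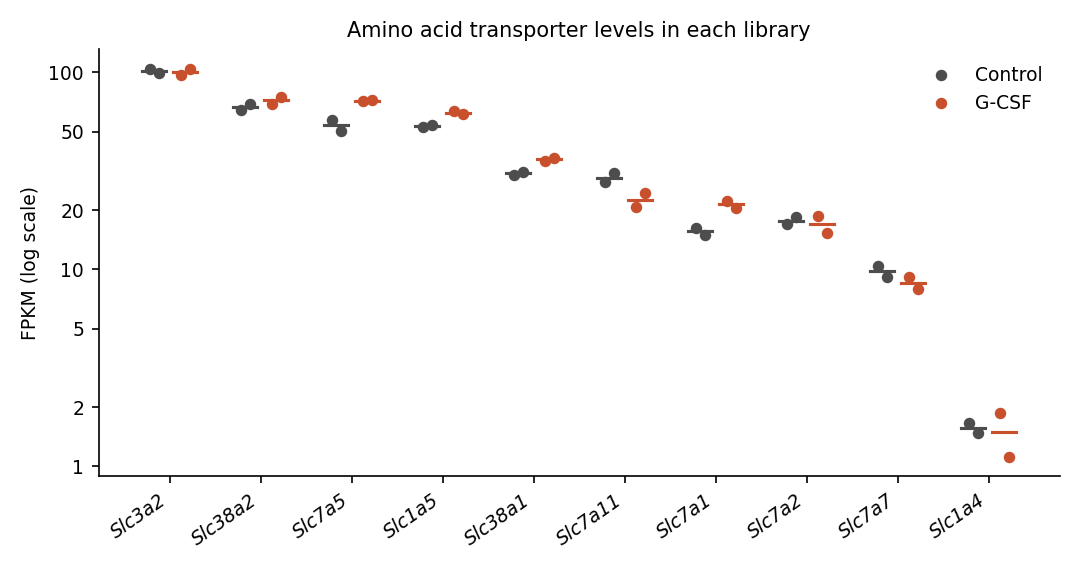
FPKM on a log axis for each transporter in the 2 Control and 2 G-CSF libraries, ordered by the mean level; points are libraries and bars are means of 2. Levels run from 104.3 FPKM for *Slc3a2* to 1.12 FPKM for *Slc1a4*, and the libraries of the groups are apart for *Slc38a2*, *Slc7a5*, *Slc1a5*, *Slc38a1*, *Slc7a11*, *Slc7a1* and *Slc7a7*.

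*Slc7a11* (ENSMUSG00000027737, chr3:49892526-50443614 on the minus strand, GRCm38) encodes xCT, which imports cystine in exchange for glutamate and so feeds the synthesis of glutathione. Its level was 27.7 and 30.7 FPKM in Control and 20.8 and 24.4 FPKM with G-CSF. Both G-CSF libraries lay below both Control libraries. The log2 fold change was -0.37 (SE 0.092, 95% interval -0.59 to -0.15), and the adjusted p was 0.0338 with limma. Only 10.8% of all genes tested had a lower log2 fold change. The call rested on the libraries used: the adjusted p was 0.107 without Control replicate 2, with a log2 fold change of -0.30, and 0.106 without G-CSF replicate 1, with -0.26. It was also lost when genes of low level were kept, with an adjusted p of 0.0645.

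The region upstream of *Slc7a11* is shown because this was the only one of the 10 transporters called lower with G-CSF. The motif TGATGNAA, of the kind bound by C/EBP-ATF dimers in amino acid response elements, was searched on both strands over 250 bases before and 50 bases after each RefSeq start site of GRCm38.p6. It was present in 3.97% of 32851 such windows. The *Slc7a11* window held it at positions -66 to -59 on the strand of the gene and at -47 to -40 on the opposite strand, counted from the start site. Both are in capitals in the 250 bases before the start, read on the minus strand.
Slc7a11, chr3:50443614-50443863: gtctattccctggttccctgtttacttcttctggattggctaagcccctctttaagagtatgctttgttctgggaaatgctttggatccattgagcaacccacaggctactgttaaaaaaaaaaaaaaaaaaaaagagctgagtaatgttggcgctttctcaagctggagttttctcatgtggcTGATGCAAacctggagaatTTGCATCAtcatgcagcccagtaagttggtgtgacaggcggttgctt
The search for TGACNNNGC, the core of the antioxidant response element, and for the E-box CACGTG found neither in this window. RefSeq windows were given for 6 of the 10 transporters, 11 windows in all, and those of *Slc7a5*, *Slc7a2*, *Slc1a5* and *Slc38a1* were not analysed here. TGATGNAA was also found for *Slc7a7*, at 2 places in the windows of its start sites, and across the start site of *Slc1a4* at positions -4 to 4 on the opposite strand. *Slc7a11* was lower with G-CSF, while *Slc7a7* and *Slc1a4*, which share the motif, did not pass the test. A match is a run of letters and not evidence of binding.

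*Slc7a5* (ENSMUSG00000040010, chr8:121881150-121907694 on the minus strand) encodes LAT1, which brings leucine and other large neutral amino acids into the cell in exchange for glutamine. It was 57.6 and 50.6 FPKM in Control and 71.8 and 72.0 FPKM with G-CSF. The G-CSF libraries were close to each other and both above Control. This was a log2 fold change of 0.41 (SE 0.068, 95% interval 0.25 to 0.58), 1.33-fold, with an adjusted p of 0.0117. It passed in all 4 fits that left out a library, with log2 fold changes from 0.32 to 0.51, and 94.3% of all genes had a lower log2 fold change.

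*Slc7a7* (ENSMUSG00000000958, chr14:54369442-54417780 on the minus strand) encodes y+LAT1, which exports cationic amino acids in exchange for neutral ones. Its level was 10.4 and 9.15 FPKM in Control and 9.13 and 7.94 FPKM with G-CSF. The G-CSF libraries were below the Control libraries, the nearest pair by a margin of hundredths of an FPKM. The log2 fold change of -0.19 (95% interval -0.45 to 0.06) did not pass, with an adjusted p of 0.218. Its exons overlap those of *Oxa1l* on the opposite strand, and 4.46% of its 75-base windows also occur, read on either strand, in transcripts of that gene.

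*Slc3a2* (ENSMUSG00000010095, chr19:8706882-8723369 on the minus strand) encodes the heavy chain that these light chains require. It was 103.3 and 98.9 FPKM in Control and 96.5 and 104.3 FPKM with G-CSF, so that the groups overlapped. The log2 fold change was -0.01 (95% interval -0.15 to 0.12, adjusted p = 0.904), and its sign depended on the library left out. Of its 75-base windows, 2.76% are shared with other genes.

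The makeup of the light chain transcripts is given as a description. It follows from the levels above, so it is no further evidence for the opposite calls of *Slc7a5* and *Slc7a11*. Besides the 3 light chains above, *Slc7a6* (y+LAT2) and *Slc7a8* (LAT2) were measured, while *Slc7a10* was at 0 in 3 of 4 libraries. *Slc7a5* made up 44.3% and 39.9% of the summed light chain FPKM in Control, against 52.6% and 51.2% with G-CSF. *Slc7a11* made up 21.3% and 24.2% in Control, against 15.3% and 17.3% with G-CSF. *Slc7a8* went from 18.8% and 20.8% to 16.3% and 17.1%, and its own level did not pass the test (log2 fold change -0.13, adjusted p = 0.201). *Slc7a6* went from 7.54% and 7.89% to 9.03% and 8.68%. *Slc7a7* went from 8.01% and 7.21% to 6.69% and 5.65%. The groups did not overlap in any of these shares, and the levels of 66.5% of all genes tested did not overlap either. The shares are parts of a whole, so that a rise of 1 lowers the others.

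The ratio of *Slc7a5* to *Slc7a11* was 2.08 and 1.65 in Control, against 3.45 and 2.95 with G-CSF, 1.72-fold higher on the log scale. The summed light chains were 1.26 and 1.28 times *Slc3a2* in Control and 1.41 and 1.35 times with G-CSF. An exact two-sided permutation test gave p = 0.333 for both ratios, which is the smallest p that 2 against 2 libraries allow.

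**Figure D3:**
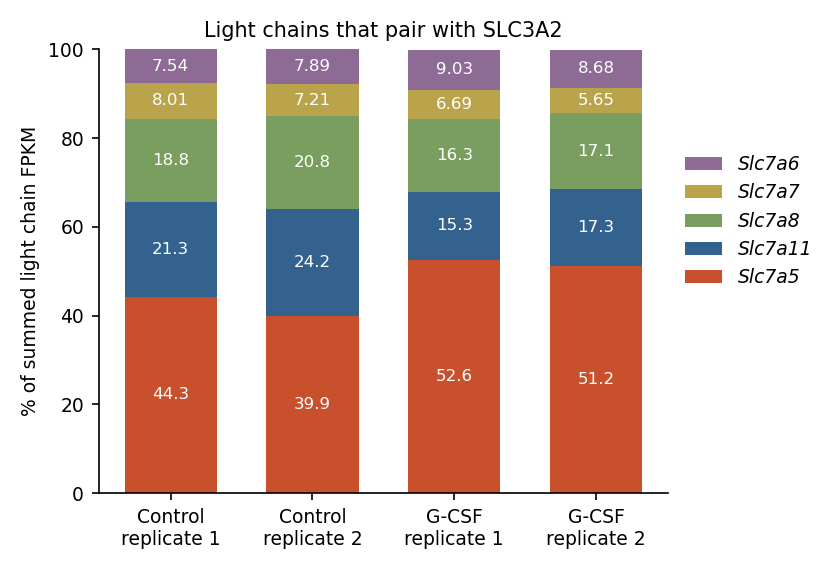
Share of each SLC3A2 light chain in the summed light chain FPKM of a library, in percent, as stacked bars for the 2 Control and 2 G-CSF libraries. *Slc7a5* holds 39.9% to 44.3% in Control and 51.2% to 52.6% with G-CSF, and *Slc7a11* 21.3% to 24.2% and 15.3% to 17.3%; *Slc7a10*, at most 0.0337%, is not drawn.

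Of the cationic transporters, *Slc7a1* rose and *Slc7a2* did not pass the test. *Slc7a1* (ENSMUSG00000041313, chr5:148327410-148399904 on the minus strand) encodes CAT1, the widely expressed arginine and lysine carrier. It was 16.3 and 14.9 FPKM in Control and 22.2 and 20.5 FPKM with G-CSF. All G-CSF values were above all Control values. This amounted to a log2 fold change of 0.45 (SE 0.0742, 95% interval 0.27 to 0.63), 1.37-fold and the largest rise among the 10, with an adjusted p of 0.0116. It passed in all 4 fits that left out a library, with log2 fold changes from 0.39 to 0.51, and 95.5% of all genes had a lower log2 fold change.

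The 250 bases before the first RefSeq start site of *Slc7a1* are shown for comparison with *Slc7a11*, since this transporter moved the other way. They held no TGATGNAA and 1 match to TGACNNNGC, at positions -11 to -3 on the opposite strand, which is in capitals. TGACNNNGC was present in 12.4% of the 32851 windows, *Slc38a2* having it at -27 to -19.
Slc7a1, chr5:148399905-148400154: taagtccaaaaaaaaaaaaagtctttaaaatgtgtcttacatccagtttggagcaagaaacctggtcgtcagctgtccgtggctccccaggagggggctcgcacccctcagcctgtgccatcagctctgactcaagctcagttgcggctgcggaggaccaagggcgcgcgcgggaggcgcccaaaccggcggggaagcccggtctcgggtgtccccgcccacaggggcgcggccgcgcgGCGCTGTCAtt
The sequence is read on the minus strand. CACGTG, present in 7.15% of all windows, was found in none of the 11 windows of the transporters, which says only that these letters are not there.

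*Slc7a2* (ENSMUSG00000031596, chr8:40862396-40922308 on the plus strand) encodes CAT2, the arginine carrier known to be induced in activated macrophages. It was 16.9 and 18.4 FPKM in Control and 18.7 and 15.3 FPKM with G-CSF, so that the Control libraries lay between the G-CSF libraries. Its log2 fold change was -0.06 (95% interval -0.32 to 0.19, adjusted p = 0.688), and its sign turned to 0.08 without G-CSF replicate 2. Its exons overlap those of *Gm26584* on the opposite strand, with which it shares 5.4% of its 75-base windows, read on either strand. The ratio of *Slc7a1* to *Slc7a2* was 0.962 and 0.81 in Control, against 1.19 and 1.34 with G-CSF (exact two-sided permutation p = 0.333, the smallest possible).

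Among the carriers of glutamine and other neutral amino acids, *Slc1a5* and *Slc38a1* rose by similar small amounts. *Slc1a5* (ENSMUSG00000001918, chr7:16781340-16798274 on the plus strand) encodes ASCT2, a sodium-dependent exchanger that takes up glutamine. It was 52.6 and 54.0 FPKM in Control and 63.7 and 61.1 FPKM with G-CSF, without overlap. Its log2 fold change was 0.23 (SE 0.0485, 95% interval 0.11 to 0.34), 1.17-fold, with an adjusted p of 0.0231. The call held without G-CSF replicate 2 (adjusted p = 0.045) and was lost without Control replicate 1, Control replicate 2 or G-CSF replicate 1, with adjusted p of 0.096, 0.0575 and 0.0941.

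*Slc38a1* (ENSMUSG00000023169, chr15:96571418-96642913 on the minus strand) encodes SNAT1. It was 30.3 and 31.1 FPKM in Control and 35.5 and 36.7 FPKM with G-CSF, again without overlap. Its log2 fold change was 0.23 (SE 0.0518, 95% interval 0.11 to 0.36), 1.18-fold, with an adjusted p of 0.025. With any 1 of the 4 libraries left out, the log2 fold change stayed between 0.21 and 0.26, but the adjusted p was 0.0613 to 0.104 and the call was lost. Of its 75-base windows, 2.6% are shared with other genes.

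*Slc38a2* (ENSMUSG00000022462, chr15:96687392-96699730 on the minus strand) encodes SNAT2, whose transcript is known to rise when amino acids are scarce. It was 64.7 and 69.3 FPKM in Control and 69.3 and 74.7 FPKM with G-CSF, the highest Control library being just below the lowest G-CSF library. The log2 fold change of 0.10 (95% interval -0.04 to 0.25) did not pass, with an adjusted p of 0.246. *Slc1a4* (ENSMUSG00000020142, chr11:20302180-20332713 on the minus strand), which encodes ASCT1, a carrier of alanine, serine and cysteine, was 1.67 and 1.48 FPKM in Control and 1.86 and 1.12 FPKM with G-CSF. The G-CSF libraries enclosed the Control libraries, and the interval of the log2 fold change ran from -0.74 to 0.51 (adjusted p = 0.78).

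The limits of these calls lie in the 2 libraries per group. All 5 calls depended on estimating the spread of a gene from genes of like level: without this trend, none of the 10 passed with limma (adjusted p from 0.0596 to 0.107 for the 5), although 5 had an unadjusted p under 0.05, and 0.932% of all genes passed. Of the genes of the further lists below that were called, *Slc43a1* and *Bcat1* passed without the trend and the others did not. *Slc43a1*, at 0.468 and 0.474 FPKM in Control, entered the test only through the G-CSF libraries. Its passing here is therefore no added support for its call.

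Other amino acid transporters of the plasma membrane were mostly absent or low. Of 36 such genes, 26 were below the level needed for the test, 10 of these at 0 in every library. Of the 10 tested, 2 were higher and 1 was lower with G-CSF, beside 12.6% and 11.3% of all genes, with a median log2 fold change of 0.09. *Slc6a6*, the taurine transporter, was 115.0 and 111.8 FPKM in Control and 97.0 and 98.7 FPKM with G-CSF (log2 fold change -0.21, adjusted p = 0.0197), at a level like that of *Slc3a2*. *Slc7a6*, the second y+L light chain, was 9.784 and 10.003 FPKM in Control and 12.3 and 12.2 FPKM with G-CSF (log2 fold change 0.31, adjusted p = 0.0244). *Slc43a1*, which encodes LAT3, a carrier of large neutral amino acids that needs no heavy chain, was 0.468 and 0.474 FPKM in Control and 1.17 and 1.09 FPKM with G-CSF (log2 fold change 1.10, adjusted p = 0.0249). It was the 1 transporter of this list past a 2-fold change, but with a pseudocount of 1 FPKM its log2 fold change was 0.53. Both Control values lie under the 0.5 FPKM filter, so *Slc43a1* entered the test through the G-CSF libraries, and with genes of low level kept its adjusted p was 0.0349. Each of these 3 calls was lost in every fit that left out a library, with adjusted p from 0.0514 to 0.111.

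**Figure D4:**
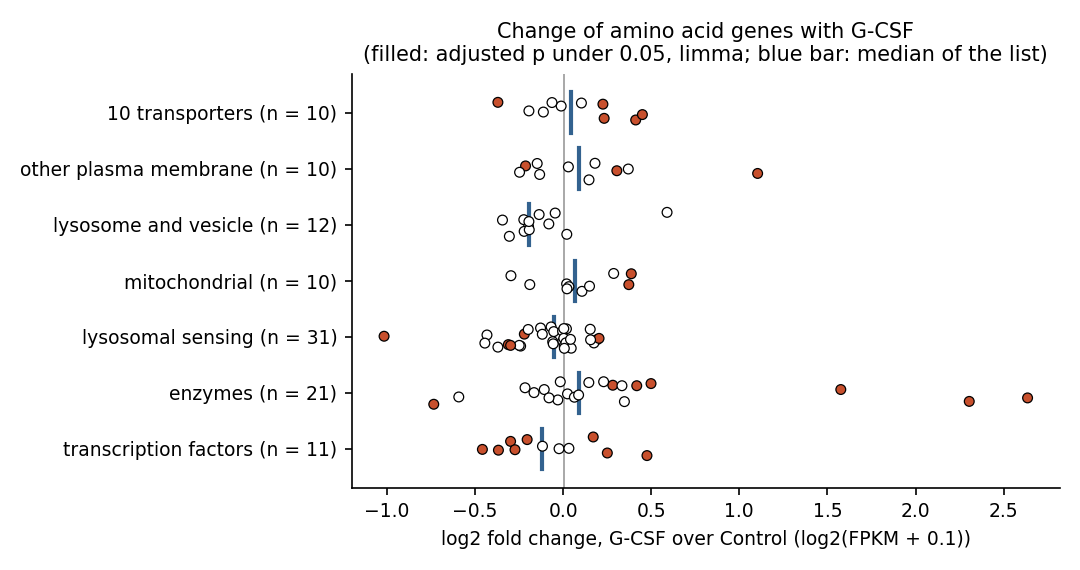
Log2 fold change, G-CSF over Control on log2(FPKM + 0.1), of each tested gene in the 10 transporters and 6 further lists; filled points passed an adjusted p under 0.05 with limma, blue bars are list medians and the gray line is the median of all genes (0.01). The lysosomal and vesicular transporters have no filled point and a median of -0.19, and the enzyme list reaches furthest to the right, with *Nos2* at 2.64 and *Arg1* at 2.30.

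Transporters of internal membranes were also examined. Of 12 lysosomal and vesicular amino acid transporters tested, none passed in either direction with limma, 4 had an unadjusted p under 0.05 and the median log2 fold change was -0.19. Of 10 mitochondrial carriers tested, 2 were higher and none lower, with a median of 0.07, and 4 had an unadjusted p under 0.05. Over all 11701 genes tested, 12.6% were higher and 11.3% lower, and 4568 had an unadjusted p under 0.05. *Slc25a12*, the aspartate and glutamate carrier, was 34.0 and 35.2 FPKM in Control and 45.2 and 44.4 FPKM with G-CSF (log2 fold change 0.37, adjusted p = 0.00697). *Sfxn1*, the mitochondrial serine carrier, was 38.4 and 39.6 FPKM in Control and 50.2 and 51.7 FPKM with G-CSF (log2 fold change 0.39, adjusted p = 0.00657). Both passed in all 4 fits that left out a library.

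Amino acids that enter the cell are sensed on the lysosome by the Rag GTPases and their regulators, which recruit mTORC1. Of 31 genes of this system tested, 1 was higher and 4 were lower, beside 12.6% and 11.3% of all genes, with a median log2 fold change of -0.05. *Sesn2*, the leucine sensor of the sestrin family, was 21.98 and 21.86 FPKM in Control and 18.0 and 17.3 FPKM with G-CSF (log2 fold change -0.31, adjusted p = 0.0155). *Rragd*, a Rag GTPase, was 2.79 and 2.15 FPKM in Control and 1.26 and 1.07 FPKM with G-CSF (log2 fold change -1.02, adjusted p = 0.017), with a log2 fold change of -0.68 at a pseudocount of 1 FPKM. The libraries of the groups did not overlap for these 2, as was true of 66.5% of all genes tested. Nor did they for *Fnip2*, a partner of folliculin, or *Sec13*, a subunit of the GATOR2 complex. *Fnip2* had a log2 fold change of -0.30 (adjusted p = 0.046), and *Sec13*, which also serves in nuclear pores and vesicle coats, had 0.20 (adjusted p = 0.0211). Each of these 4 calls was lost in at least 2 of the 4 fits that left out a library, and that of *Fnip2* also when genes of low level were kept (adjusted p = 0.0808).

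Enzymes that use the transported amino acids gave larger changes than the transporters in some cases. Of 21 tested, 6 were higher and 1 was lower, 3 of them (*Arg1*, *Nos2* and *Bcat1*) past a 2-fold change, and the median log2 fold change was 0.09. Over all genes tested, 12.6% were higher and 11.3% lower, and 1.36% passed with a 2-fold change. With a pseudocount of 1 FPKM, *Arg1* alone of these 3 stayed past 2-fold, with a log2 fold change of 1.76, beside 0.89 for *Bcat1* and 0.82 for *Nos2*. *Odc1*, the ornithine decarboxylase of polyamine synthesis, was 66.5 and 67.1 FPKM in Control and 88.6 and 90.1 FPKM with G-CSF (log2 fold change 0.42, adjusted p = 0.00468). *Arg2*, the mitochondrial arginase, was 28.6 and 29.4 FPKM in Control and 15.6 and 19.4 FPKM with G-CSF (log2 fold change -0.73, adjusted p = 0.00811). *Bcat1*, the cytosolic aminotransferase of leucine, isoleucine and valine, was 0.566 and 0.601 FPKM in Control and 2.19 and 1.72 FPKM with G-CSF (log2 fold change 1.58, adjusted p = 0.00793). *Got2*, the mitochondrial aspartate aminotransferase, went from 87.9 and 86.9 FPKM to 104.6 and 108.1 FPKM (log2 fold change 0.28, adjusted p = 0.0101). These 4 passed in all 4 fits that left out a library.

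The other 3 enzymes that passed fall outside the rule for named genes and were chosen after their values were seen. *Arg1*, the cytosolic arginase, was 0.999 and 1.44 FPKM in Control and 11.6 and 3.43 FPKM with G-CSF (log2 fold change 2.30, adjusted p = 0.0264), with an adjusted p of 0.0653 without Control replicate 1 and 0.06 when genes of low level were kept. Without G-CSF replicate 1 its log2 fold change was 1.44, and without G-CSF replicate 2 it was 3.17, so that the choice of library moved its size. *Nos2*, the inducible nitric oxide synthase, was 0.099 and 0.019 FPKM in Control and 1.10 and 0.66 FPKM with G-CSF (log2 fold change 2.64, adjusted p = 0.0151), and its adjusted p was 0.0896 without G-CSF replicate 1. It too entered the test through the G-CSF libraries, and its log2 fold change ran from 0.82 with a pseudocount of 1 to 3.94 with a pseudocount of 0.01, so that its size is not settled. *Asns*, the asparagine synthetase, was 22.5 FPKM in both Control libraries and 34.9 and 29.0 FPKM with G-CSF (log2 fold change 0.50, adjusted p = 0.0147).

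Of 11 transcription factor genes known to act on transporter genes, 3 were higher and 5 were lower, with a median log2 fold change of -0.12. The shares over all genes tested were 12.6% higher and 11.3% lower. *Myc*, whose product is known to act on *Slc7a5* and *Slc1a5*, was 54.7 and 52.3 FPKM in Control and 79.1 and 70.1 FPKM with G-CSF (log2 fold change 0.48, adjusted p = 0.00829). *Atf4*, the main factor of the amino acid response, was 230.6 and 222.4 FPKM in Control and 272.6 and 266.5 FPKM with G-CSF (log2 fold change 0.25, adjusted p = 0.0132). *Atf3*, a factor of the same response, was 20.9 and 19.4 FPKM in Control and 14.7 and 14.5 FPKM with G-CSF (log2 fold change -0.46, adjusted p = 0.0081). *Cebpb* was 175.5 and 155.8 FPKM in Control and 130.0 and 139.1 FPKM with G-CSF (log2 fold change -0.30, adjusted p = 0.0276). *Myc* and *Atf3* passed in all 4 fits that left out a library, and *Atf4* and *Cebpb* in 2 of the 4; with genes of low level kept, *Cebpb* had an adjusted p of 0.054. *Nfe2l2*, which encodes NRF2, and *Bach1*, its competitor at antioxidant response elements, were chosen after their values were seen because *Slc7a11* is a known target of NRF2. *Nfe2l2* was 131.4 and 125.6 FPKM in Control and 108.9 and 114.2 FPKM with G-CSF (log2 fold change -0.20, adjusted p = 0.0305). *Bach1* was 23.2 and 24.8 against 19.1 and 20.6 FPKM (log2 fold change -0.27, adjusted p = 0.0337). With genes of low level kept, *Bach1* had an adjusted p of 0.0556 with limma. The call of *Nfe2l2* was lost in all 4 fits that left out a library and that of *Bach1* in 3 of them. The remaining factors called with limma were *Trp53* (log2 fold change 0.17, adjusted p = 0.0324) and *Ddit3* (-0.37, adjusted p = 0.0477), also given after their values were seen. With genes of low level kept, *Ddit3* had an adjusted p of 0.0883 with limma. It was 0.0582 with the filter at 0.1 FPKM and 0.0656 with small RNA genes kept. In the fits that left out a library, log2 fold changes ran from -0.51 to -0.22 for *Ddit3* and from 0.167 to 0.175 for *Trp53*. The 3 tested factors that did not pass with limma were *Keap1* (log2 fold change 0.03, adjusted p = 0.718), *Cebpg* (-0.02, 0.819) and *Max* (-0.12, 0.144). Nor did the glutathione synthesis genes *Gclc* (-0.08, 0.392), *Gclm* (0.23, 0.0945) and *Gss* (0.06, 0.698) of the enzyme list. These genes too are given after their values were seen. The level of mRNA of a factor is not its activity, and no link between these genes and the transporters was tested.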

How the data were processed

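RNA-seq libraries of *in vitro* MDSCs, 2 Control and 2 G-CSF, were analysed. The deposited values are FPKM per gene, which the authors had already divided by mapped reads and transcript length; the unit was inferred from the values and from Cufflinks 2.2.1 in the submitters' processing notes, which also name TopHat2 2.0.13, Bowtie2 2.2.3, SAMtools 0.1.19 and mm10. Doses and culture time come from the study's methods, and groups and replicate numbers from the sample labels.

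G-CSF was compared with Control by limma 3.58.1 (R 4.3.3; lmFit, eBayes with trend, two-sided) on log2(FPKM + 0.1), for genes of at least 0.5 FPKM in 2 libraries. After 1283 small RNA genes were left out, 11701 genes were tested, with Benjamini-Hochberg adjustment over all of them. The script was tested on simulated data. Because FPKM keep no read totals, depth was estimated from genes of 600 to 4000 bases with up to 8 reads. Positions are from GENCODE M21 (GRCm38, 23310 of 24346 names matched), start sites from RefSeq. Shared windows were counted over 75 bases, the read length, on either strand. The study used a stranded library kit, and whether the deposited values made use of the strand was not examined.

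The transporters, the 6 further lists and the 7 marker lists were chosen with earlier results of these data known, and no list was tested as a set. Genes named beyond the transporters are, of those with an adjusted p under 0.05, at most the 8 with the smallest p among other plasma membrane transporters and at most 4 in each other list; exceptions are marked. In total, 4 list names were matched by an older symbol. Of the markers, *Ly6g* and *Trbc2* were not analysed here. Alternatives were other scalings, pseudocounts and filters, no trend, a replicate block, small RNA genes kept and each library left out.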

Additional observations from a re-analysis of the deposited data

How the results depend on the processing

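Under the 10 alternatives other than leaving out a library, the 4 rises were called in 9 and the fall of *Slc7a11* in 8. With limma without the trend, 0 transporters were higher and 0 lower, 109 genes were called in all and 64 of them past a 2-fold change, although 4121 genes had an unadjusted p under 0.05. With no filter on low values, 0 transporters were lower. With a pseudocount of 1, 61 genes passed a 2-fold change against 159. The cause of these losses was not tested. With each library left out in turn, 2 to 3 transporters were higher and 0 to 1 lower, and 1300 to 1719 genes were called against 2795. These fits leave 1 library in a group, which is assumed to vary like the others. The log2 fold change then ranged from -0.067 to 0.046 for *Slc3a2*, from -0.206 to 0.079 for *Slc7a2* and from -0.454 to 0.23 for *Slc1a4*, turning sign for each, and these 3 were called in none of the fits. With the replicate numbers as a block, 4 transporters were higher and 1 lower. In that fit 3840 genes were called, 32.8% of those tested, 192 of them past a 2-fold change. Of the 12 lysosomal and vesicular transporters, 2 were then called, both lower: *Slc15a3* (adjusted p = 0.00533 with limma, against 0.0516) and *Slc15a4* (0.0348, against 0.103). The numbers could not be shown to pair the libraries, since there are 2 pairs and no label of a shared culture or day (correlation of the deviations of same-numbered libraries 0.21 across 11701 genes). Upper-quartile and median-ratio scaling moved the median of all genes to -0.01 and 0.00. *Slc1a4* has the fewest estimated reads.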

Other observations

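Among all 200 genes with an *Slc* symbol that were tested, a set chosen after the values were seen and holding the 10 transporters, 40 were called, 14 higher and 26 lower with G-CSF (23.9% of all genes were called), with a median log2 fold change of -0.03. The genes past a 2-fold change were 3, beside 1.36% of all genes: *Slc43a1*, described above, and 2 that carry no amino acids. *Slc39a2*, a zinc transporter, was 19.8 and 17.4 FPKM in Control and 7.48 and 7.52 FPKM with G-CSF (log2 fold change -1.30, adjusted p = 0.00135 with limma). *Slc2a3*, the glucose transporter GLUT3, was 33.9 and 29.6 FPKM in Control and 16.0 and 15.1 FPKM with G-CSF (log2 fold change -1.02, adjusted p = 0.00262).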
